A study of Mus musculus with 11 samples.

Results

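The 8 transporters described here are Slco1b2, Slco1a1, Slco1a4, Slco2b1, Slc22a7, Abcc3, Abcc6 and Abcg2, followed in mouse liver from E14.5 to P56. They were chosen by name, among the 27962 gene names of an Agilent 4x44k array, and every probe that carried one of these names was taken, which gave 11 of 41174 probes. All 8 genes were among the 16695 genes that could be tested, and all 11 probes passed the filter on dim probes. The label of the group speaks of organic anions and cations, but by their known substrates these members are mostly carriers of organic anions.

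Normal liver was taken at E14.5 (3 arrays), E18.5 (3 arrays), P5 (2 arrays, replicates 2 and 3) and P56 (3 arrays), which the labels call biological replicates. The labels write the embryonic ages as days 14 and 18, with no treatment or strain. Each array was hybridized with the liver RNA in Cy5 and with a commercial adult mouse liver RNA in Cy3, so every value is a log2 ratio of a stage to adult liver, and no dyes were swapped. The source given is whole liver, yet the labels also list hepatoblasts, immature hepatocytes and hepatocytes as cell types, and the protocol mentions both whole livers and isolated cells, so which of them an embryonic array holds is not settled.

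Hepatocytes take organic anions from portal blood through carriers in the basolateral membrane and pass them on, often after conjugation, to bile or back to blood. The Slco genes encode organic anion transporting polypeptides, which take up bile acids, steroid conjugates, bilirubin and many drugs without sodium. Slc22a7 encodes the organic anion transporter OAT2. The Abc genes encode ATP-driven exporters: Abcc3 and Abcc6 sit in the basolateral membrane, whereas Abcg2 sits in the canalicular membrane that faces bile. Uptake and export of organic anions are known to mature around and after birth in rodents.

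Slco1b2, Slco1a4 and Slco1a1 lie close together on chromosome 6. In the RefSeq gene order of that cluster they are numbers 2 (Slco1b2), 4 (Slco1a4) and 5 (Slco1a1) of the 8 protein-coding genes that run from Slco1c1 to Slco1a5. The windows from 250 bases before to 50 bases after their transcription start are shown because, among the successive steps, Slco1b2 was called at each and its neighbours Slco1a4 and Slco1a1 from P5 to P56 alone. They are from RefSeq on GRCm38.p6, read 5′ to 3′ along the gene. Capitals mark the HNF1 half-site GTTAAT and the nuclear receptor half-site AGGTCA on either strand (ATTAAC and TGACCT in reverse). No 2 matches overlapped.
Slco1b2, chr6:141629268-141629567, plus strand: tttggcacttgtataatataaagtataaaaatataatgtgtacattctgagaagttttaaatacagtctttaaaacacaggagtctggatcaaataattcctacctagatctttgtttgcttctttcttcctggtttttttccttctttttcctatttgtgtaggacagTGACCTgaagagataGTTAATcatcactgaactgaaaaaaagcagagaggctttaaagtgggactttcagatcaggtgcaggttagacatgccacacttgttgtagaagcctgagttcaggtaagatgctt
Slco1a4, chr6:141856171-141856470, minus strand: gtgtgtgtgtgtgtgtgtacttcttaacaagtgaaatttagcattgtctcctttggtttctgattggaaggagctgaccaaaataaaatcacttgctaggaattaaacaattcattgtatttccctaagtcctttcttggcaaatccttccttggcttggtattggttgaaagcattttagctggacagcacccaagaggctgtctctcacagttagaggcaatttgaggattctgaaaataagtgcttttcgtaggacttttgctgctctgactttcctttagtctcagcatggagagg
Slco1a1, chr6:141946913-141947212, minus strand: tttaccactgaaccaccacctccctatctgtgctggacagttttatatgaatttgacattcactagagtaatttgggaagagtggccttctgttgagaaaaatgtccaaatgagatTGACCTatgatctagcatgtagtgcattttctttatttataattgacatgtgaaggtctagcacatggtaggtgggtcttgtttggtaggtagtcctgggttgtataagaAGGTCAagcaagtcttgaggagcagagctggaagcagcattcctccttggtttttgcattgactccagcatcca

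Counted from the first transcribed base, the Slco1b2 window held GTTAAT at -66 and AGGTCA in reverse at -81. The Slco1a1 window held AGGTCA at -24 and in reverse at -134, and the Slco1a4 window held neither motif. Over all 32851 promoter windows of the table, GTTAAT was found in 7.1% and AGGTCA in 16.3%. The table held windows for 5 of the 8 members, 9 windows in all. None of the 3 windows of Slco2b1 held either motif, and 2 of the 3 windows of Abcg2 held AGGTCA. A match is a run of letters, and whether a factor binds there was not measured.

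For 3 genes the array carried a pair of probes, each of 60 bases. The probes of Abcg2, which gave like results, and the dimmer probe of Abcc3, which gave a flatter course than its partner, are shown with their mm7 positions. Both Abcg2 probes span an intron.
Abcg2, brighter probe, chr6:58658701-58660383, plus strand: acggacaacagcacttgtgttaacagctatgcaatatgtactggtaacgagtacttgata
Abcg2, dimmer probe, chr6:58646466-58651396, plus strand: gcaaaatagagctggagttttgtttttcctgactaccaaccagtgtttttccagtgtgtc
Abcc3, dimmer probe, chr11:94473410-94473469, minus strand: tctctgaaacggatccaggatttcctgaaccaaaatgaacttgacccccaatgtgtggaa

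Each array held 43379 spots without controls, of which 16790 (P56 replicate 2) to 25718 were well above background in Cy5. Pearson's r between replicate arrays was at least 0.969 within E14.5 and E18.5, 0.901 between the pair at P5 and 0.827 to 0.937 within P56. The arrays were read in 4 scans, and P5 replicate 3 shared its scan with all P56 arrays while P5 replicate 2 was scanned alone. Expression of 7 hepatocyte markers rose at E18.5 (7 of 7 called, median log2 change 2.95), and 9 erythroid markers stayed well above background on every array from E14.5 to P5, so the embryonic arrays hold RNA of blood cells beside that of the liver epithelium. In bulk RNA, fewer cells of a type and less RNA per cell cannot be told apart.

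Expression of 7 of the 8 transporters was higher at P56 than at E14.5, and that of Abcg2 was lower, but they did not change together. The call of Abcc6, whose probe was not well above background at E14.5, was lost in 7 of 26 alternative settings. Slco1b2 had gained most of its rise by E18.5 and P5, Slco1a1 and Slco2b1 rose between P5 and P56, and Slc22a7 and Abcc3 climbed over several steps. From E14.5 to E18.5, 2 of 8 members rose and none fell, where 47.4% of all genes tested changed (24.6% up and 22.8% down). No member fell at an unadjusted p under 0.05 either (0 by limma), and the methods' t-test called 1 lower, Abcg2. From E18.5 to P5, 3 of 8 rose and 0 fell (0 by limma at an unadjusted p too, and 1 by the methods' t-test, Abcg2), against 13.7% of all genes (7.32% up and 6.4% down). From P5 to P56, 6 rose and 1 fell, against 45.6% of all genes (20.9% up and 24.7% down). From E14.5 to P56, 7 rose and 1 fell, against 70.9% (36.1% up and 34.8% down). The comparisons that skip a stage gave 6 higher and 1 lower at P56 against E18.5, beside 64.8% of all genes (31.2% up and 33.6% down), and 5 higher and 1 lower at P5 against E14.5, beside 49% (24.9% up and 24.2% down). The median log2 change of the members was 0.17, 0.50, 1.00 and 2.38 in the first 4 of these comparisons, and that of all genes tested was -0.01, 0.00, -0.02 and 0.04. These comparisons share arrays, since each stage stands in more than 1 of them. A gene was called when its limma p, adjusted by Benjamini-Hochberg over all 16695 genes, was under 0.05. Without P56 replicate 2, the array with the fewest spots above background, the number of members called in those 4 was 3, 3, 7 and 7. Over all genes, 8090, 2577, 7410 and 11387 were then called, in place of 7908, 2291, 7614 and 11834.

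**Figure D1:**
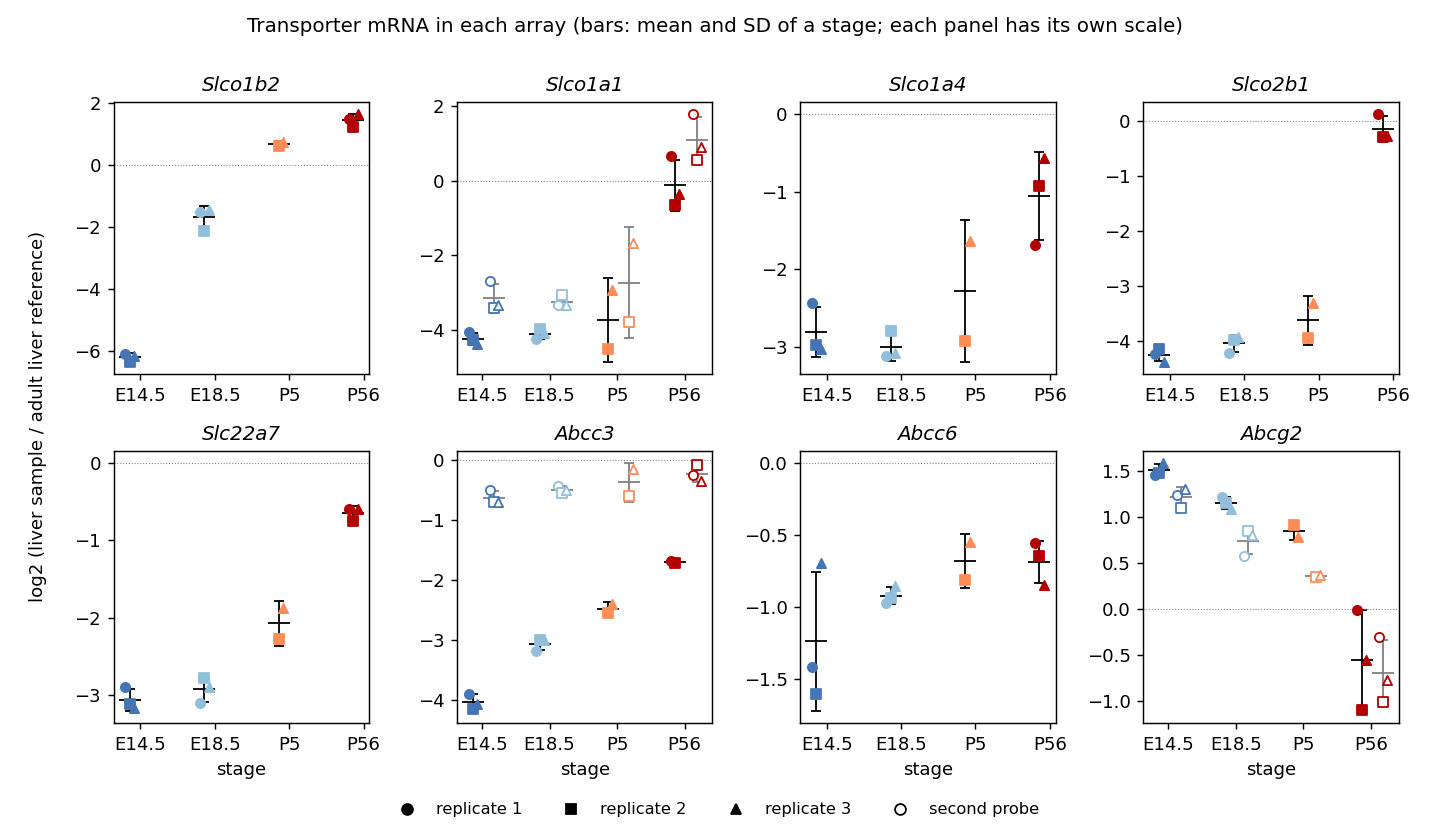
Log2 ratio of liver RNA to the adult liver reference (y axis) at each stage (x axis) for the 8 transporters, 1 point per array, with the mean and SD of each stage as bars; filled symbols are the probe that stands for the gene and open symbols the other probe. Slco1b2 climbed from a mean of -6.20 to 1.44, Slco1a1 and Slco2b1 stayed near -4 until P5 and reached about 0 at P56, and Abcg2 went from 284% to 68.1% of the reference.

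**Figure D2:**
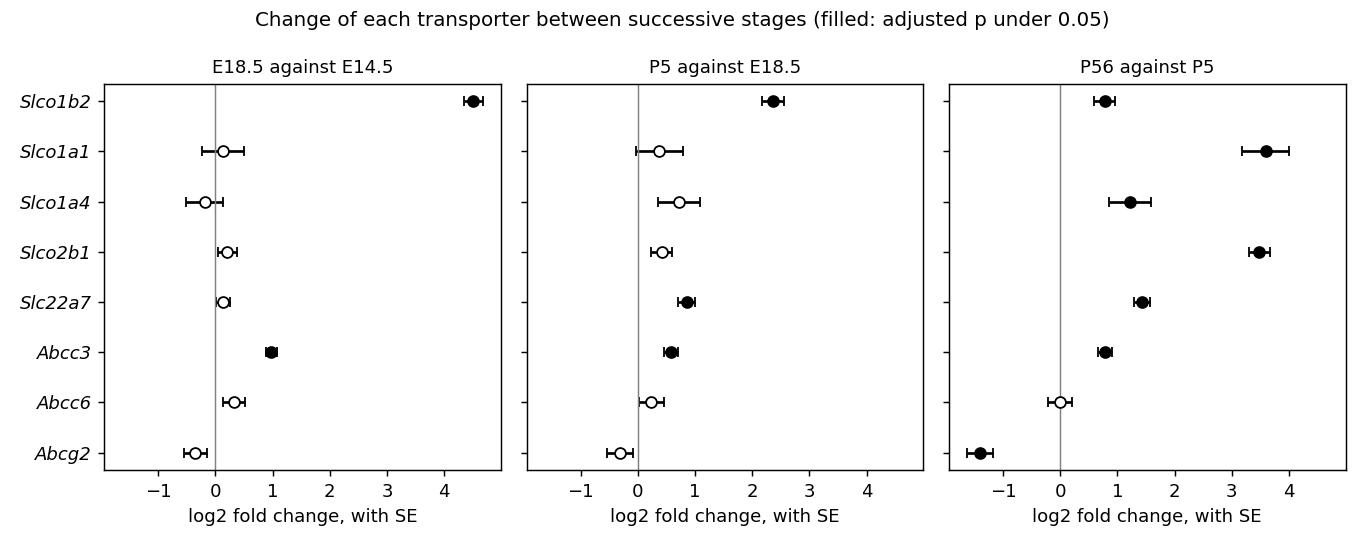
Log2 fold change between successive stages (x axis, bars are the SE) for each transporter (y axis), with filled points for an adjusted p under 0.05. Slco1b2 had its widest step from E14.5 to E18.5 (4.51), whereas Slco1a1 (3.59) and Slco2b1 (3.48) had theirs from P5 to P56.

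Slco1b2, the liver uptake carrier for bilirubin and bile acids, showed the widest range. Its log2 ratios were -6.10, -6.35 and -6.16 at E14.5, then -1.53, -2.12 and -1.44 at E18.5. At P5 they were 0.60 and 0.73, and at P56 1.47, 1.23 and 1.63. The stages followed each other with no overlap between any 2 of them. The level went from 1.36% of the adult reference at E14.5 and 30.8% at E18.5 to 159% after birth (P5) and 272% at P56. The rise was 22.7-fold at E18.5 (log2 change 4.51, SE 0.17, adjusted p = 3.9e-09), a further 5.14-fold at P5 (2.36, SE 0.19, adjusted p = 1.8e-05) and 1.71-fold at P56 (0.78, SE 0.19, adjusted p = 0.0053). From E14.5 to P56 it came to 200-fold (7.65, SE 0.17, adjusted p = 2.8e-11). The spot signals show the rise up to P5 in the unnormalized scans. Cy5 was 168, 218 and 226 at E14.5, 26889 and 20542 at P5 and 16649 to 33073 at P56. The Cy3 signal of the reference stayed between 11761 and 17737 on all arrays. The P5 signals lie within the range of P56, so the unnormalized Cy5 signal does not show the last step. The last step was the least secure. With P5 replicate 3 alone, in the scan it shares with P56, it was 0.71 (adjusted p = 0.053 with scan as a fixed block), and the authors' table gave 0.71 as well (adjusted p = 0.087). The Slco1b2 probe lies at chr6:141738135-141738194 (mm7, plus strand).

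Slco1a1, an uptake carrier of bile acids and steroid conjugates in adult liver, stayed low until P5. The log2 ratios were -4.05, -4.27 and -4.36 at E14.5 and -4.22, -3.96 and -4.08 at E18.5. At P5 they were -4.50 and -2.92, and at P56 0.65, -0.65 and -0.36. The P56 arrays lay above all others, and the pair at P5 lay on either side of both embryonic stages. The change from P5 to P56 was 12.1-fold (3.59, SE 0.41, adjusted p = 3e-05), from 7.62% to 91.9% of the adult reference. Over all alternatives this change ranged from 2.79 to 6.20. It was 2.80 without P5 replicate 2 and 4.38 without P5 replicate 3, and both passed. Between E14.5 and E18.5 the difference was 0.14 (95% interval -0.67 to 0.94, adjusted p = 0.79). From E18.5 to P5 it was 0.38 (95% interval -0.52 to 1.28, adjusted p = 0.59), but 1.17 without P5 replicate 2 (adjusted p = 0.039) and -0.41 without P5 replicate 3 (adjusted p = 0.62), and negative with the scanner software's signals, with Cy5 alone and in the authors' table. The unnormalized Cy5 signal does not separate the pair, 81.2 in P5 replicate 2 and 76.4 in P5 replicate 3, whereas P56 read 323 to 2016.

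The second Slco1a1 probe moved with the first (Pearson's r = 0.996 over 11 arrays, as a description). It was not well above background on any array before P56, where its log2 ratios were 1.78, 0.56 and 0.89. In the Cy5 channel its level at P56 was at least 11.9-fold higher than at P5. It was at least 16.8-fold higher than at E18.5 and at least 15.7-fold higher than at E14.5. Such bounds come from the sample channel after scaling between arrays, are open to dye bias and were not tested. The log2 ratios of this probe differed in the same 3 comparisons by limma (adjusted p = 8.3e-05, 5e-06 and 3.7e-06). The probe passed the filter on dim probes through P56 alone. The Slco1a1 probes lie at chr6:141961072-141961131 and chr6:141960693-141960751 (mm7, minus strand). The accession behind the brighter one is a record of another mouse strain, CAST, in the array's own description.

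Slco1a4, a neighbour of Slco1a1 that also takes up cardiac glycosides such as digoxin, gave a dim signal in these livers. Its log2 ratios were -2.44, -2.97 and -3.02 at E14.5, -3.12, -2.80 and -3.08 at E18.5, and -2.92 and -1.63 in the P5 pair. They were -1.68, -0.92 and -0.57 at P56. P56 lay above both embryonic stages on every array, but P5 replicate 3 overlapped with it. The rise from E14.5 to P56 was 3.38-fold (1.75, SE 0.33, adjusted p = 0.00044), to 48% of the adult reference. From P5 to P56 it was 2.33-fold (1.22, SE 0.36, adjusted p = 0.017). That call was lost without P5 replicate 2 (0.58, adjusted p = 0.26) and without P56 replicate 3 (0.98, adjusted p = 0.066). The Cy5 signals of this probe, at chr6:141858334-141858393 (mm7, minus strand), were 53.2 to 81.8 before P56 and 92.4, 81.0 and 179 at P56.

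Slco2b1, an uptake carrier of steroid sulfates that many tissues express, followed the course of Slco1a1 with less spread. Its log2 ratios were -4.23, -4.14 and -4.37 at E14.5, -4.22, -3.97 and -3.92 at E18.5, and -3.93 and -3.30 on the P5 arrays. At P56 they were 0.14, -0.28 and -0.26, above every earlier array. The step from P5 to P56 was 11.2-fold (3.48, SE 0.19, adjusted p = 7.1e-08), from 8.15% to 91% of the adult reference. Within the scan shared by P5 replicate 3 and P56 it was 3.17. The earlier steps were 0.21 (95% interval -0.16 to 0.57, adjusted p = 0.34) and 0.42 (95% interval 0.01 to 0.83, adjusted p = 0.16), and the later one was called without P5 replicate 2 (0.74, adjusted p = 0.016). Over both steps, from E14.5 to P5, the rise was 1.54-fold (adjusted p = 0.015). The probe is at chr7:95689295-95689354 (mm7, minus strand).

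**Figure D3:**
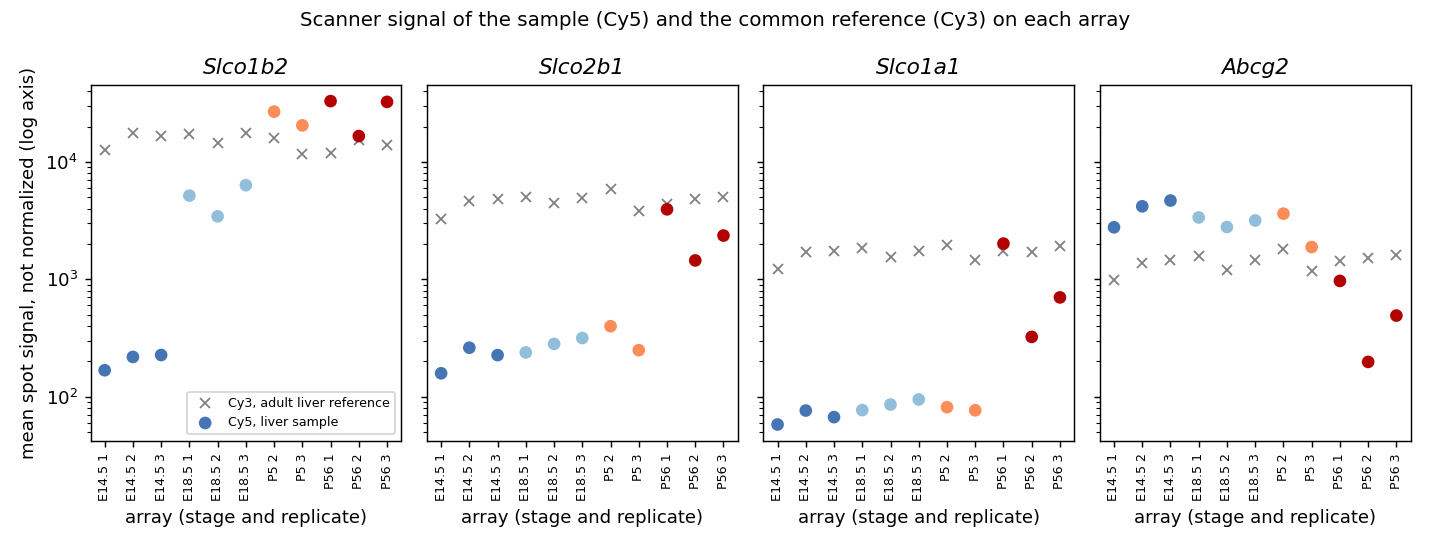
Unnormalized mean spot signal (log axis) on each of the 11 arrays for 4 transporters, with the liver sample (Cy5) as coloured points and the adult liver reference (Cy3) as crosses. The Cy3 crosses stay level for each gene, whereas the Cy5 points of Slco1b2 rise from 168 to 33073 and those of Slco2b1 and Slco1a1 lie low until P5.

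Slc22a7, which carries organic anions, nucleotides and cyclic GMP, began to rise after birth. The log2 ratios were -2.90, -3.11 and -3.16 at E14.5 and -3.10, -2.78 and -2.90 at E18.5, with overlap. They were -2.28 and -1.87 at P5 and -0.59, -0.75 and -0.59 at P56, and neither group overlapped with an earlier one. The rise was 1.81-fold from E18.5 to P5 (0.85, SE 0.14, adjusted p = 0.0028) and 2.69-fold from P5 to P56 (1.43, SE 0.14, adjusted p = 1.1e-05). Between E14.5 and E18.5 the difference was 0.13 (95% interval -0.15 to 0.41, adjusted p = 0.44), and its sign turned with Cy5 alone and with scan as a fixed block. At P56 the level was 64% of the adult reference. The probe is at chr17:44560433-44560492 (mm7, minus strand).

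Abcc3, the basolateral exporter of glucuronides and bile acids, was called higher at each step. The brighter probe, at chr11:94452396-94452455 (mm7, minus strand), gave -3.89, -4.15 and -4.07 at E14.5, -3.18, -2.99 and -3.002 at E18.5, and -2.55 and -2.40 on the P5 arrays. At P56 it gave -1.67 and -1.71, and the spot on P56 replicate 3 was marked as an outlier by the scanner software and left out. No stages overlapped. The changes were 1.97-fold at E18.5 (0.98, SE 0.10, adjusted p = 2e-05), 1.5-fold at P5 (0.58, SE 0.12, adjusted p = 0.0085) and 1.72-fold at P56 (0.78, SE 0.13, adjusted p = 0.00051), and the level reached 31% of the adult reference. The step to P5 was lost without P5 replicate 3 (0.50, adjusted p = 0.074) and in the authors' table (0.45, adjusted p = 0.38), where the step to P56 was not called either (0.62, adjusted p = 0.062). Median centring gave 0.67 for the step to P5 (adjusted p = 0.061) and 0.05 for the step to P56 (adjusted p = 0.86), and the methods' t-test called neither (adjusted p = 0.14 and 0.083). With the mean of both probes the step to P5 was 0.35 (adjusted p = 0.19), and with a value asked for on every array, which leaves the dimmer probe, the steps were 0.12 (adjusted p = 0.61) and 0.14 (adjusted p = 0.43). Abcc3 stands in the study's own list of RXR-alpha pathway genes, so its rise is no independent evidence for that list.

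The dimmer Abcc3 probe gave a flatter course, with stage means of -0.63, -0.49, -0.37 and -0.23 from E14.5 to P56. Its steps were 0.14, 0.12 and 0.14, none of them called (adjusted p = 0.41, 0.62 and 0.44), and the whole change from E14.5 to P56 was 0.40 (SE 0.13, adjusted p = 0.013) against 2.34 by the brighter probe. Its Cy5 signal was only 44.5 to 61.9 on all arrays, and it was not well above background on any E14.5 array. Over the 10 arrays with a value for both, the probes had an r of 0.819, as a description.

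Abcc6, an exporter on whose presence in liver the release of ATP to the blood depends, gave different calls under different processing. The log2 ratios were -1.41, -1.60 and -0.69 at E14.5, -0.97, -0.93 and -0.85 at E18.5, -0.81 and -0.55 on the P5 arrays, and -0.56, -0.65 and -0.84 at P56. E14.5 replicate 3 overlapped with the later stages, and its reference signal was low, 92.9 against 170 and 195 on the other arrays of that stage. The change from E14.5 to P56 was 1.47-fold (0.55, SE 0.19, adjusted p = 0.022), and it was lost when any 1 of 4 arrays was left out (adjusted p = 0.11 without E14.5 replicate 2, 0.082 without E14.5 replicate 1, 0.062 without P56 replicate 1 and 0.051 without P56 replicate 2). It was also lost with median centring (0.03, adjusted p = 0.9), with scan as a random block (0.52, adjusted p = 0.077) and in the methods' t-test (0.55, adjusted p = 0.16). The scanner software's signals gave 1.85 (adjusted p = 0.019) and the authors' own ratios 1.49 (adjusted p = 0.022). Without E14.5 replicate 3 it was 0.83 (adjusted p = 0.00019), and the step from E14.5 to E18.5 was then called as well (0.59, adjusted p = 0.0037) in place of 0.32 (adjusted p = 0.2). That step was also called with a normexp offset of 16 (0.71, adjusted p = 0.032), with the scanner software's signals (2.59, adjusted p = 0.0058), with Cy5 alone (0.59, adjusted p = 0.012) and in the authors' own ratios (1.56, adjusted p = 0.035). The probe, which spans an intron at chr7:42153654-42155902 (mm7, minus strand), was not well above background on any E14.5 array. The size of its differences from that stage is therefore uncertain. From P5 to P56 the fitted difference was -0.00 (95% interval -0.47 to 0.47, adjusted p = 0.99), and its sign was not stable.

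Abcg2, the canalicular exporter of sulfate conjugates, urate and porphyrins, ran against the other 7. It is also known from blood stem cells and erythroid precursors. Its log2 ratios were 1.45, 1.48 and 1.58 at E14.5, 1.21, 1.15 and 1.09 at E18.5 and 0.92 and 0.78 on the P5 arrays. At P56 they were -0.01, -1.10 and -0.56. Each stage lay below the one before it with no overlap. Expression fell 2.64-fold from P5 to P56 (-1.40, SE 0.23, adjusted p = 4e-04), and 4.16-fold from E14.5 to P56 (-2.06, SE 0.20, adjusted p = 2.3e-06), from 284% to 68.1% of the adult reference. The earlier differences were -0.35 (95% interval -0.80 to 0.09, adjusted p = 0.18) and -0.30 (95% interval -0.80 to 0.19, adjusted p = 0.41). The first of them was called without P56 replicate 2 (adjusted p = 0.043) or without P56 replicate 1 (adjusted p = 0.038), since these arrays enter the shared estimate of the spread, and with Cy5 alone (-0.58, adjusted p = 0.043).

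The dimmer Abcg2 probe gave the same course (r = 0.981 over 11 arrays), with stage means of 1.21, 0.74, 0.36 and -0.70. It was called lower already at E18.5 (-0.47, SE 0.15, adjusted p = 0.026), and its changes from P5 and from E14.5 to P56 were -1.05 (adjusted p = 0.00043) and -1.91 (adjusted p = 3.6e-07). Neither probe overlapped between E14.5 and E18.5.

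Most markers of blood cells were called lower from P5 to P56, as Abcg2 was, and fewer at the earlier steps. From E18.5 to P5, 2 of 9 erythroid and 3 of 6 other haematopoietic markers were called lower and 0 higher. Their median log2 changes were -0.57 and -0.46 at that step. At E18.5 against E14.5, 3 erythroid and 4 other haematopoietic markers were called higher, and 1 of each list lower. Averaged over 9 erythroid markers, the log2 ratio of an array ranged from 2.96 to 3.12 within E14.5, 3.16 to 3.33 at E18.5, 2.39 to 2.98 at P5 and -0.25 to 0.07 at P56, where 4 to 5 of the 9 were still well above background. All 9 of 9 were lower at P56 than at P5, and so were 5 of 6 other haematopoietic markers. The 2 hepatoblast markers fell as well, from means of 5.51 to 5.68 at E14.5 to 0.18 to 0.74 at P56. From E14.5 to E18.5 the erythroid mean did not fall, while the dimmer Abcg2 probe did. The part of these cells in the Abcg2 values was not tested.

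**Figure D4:**
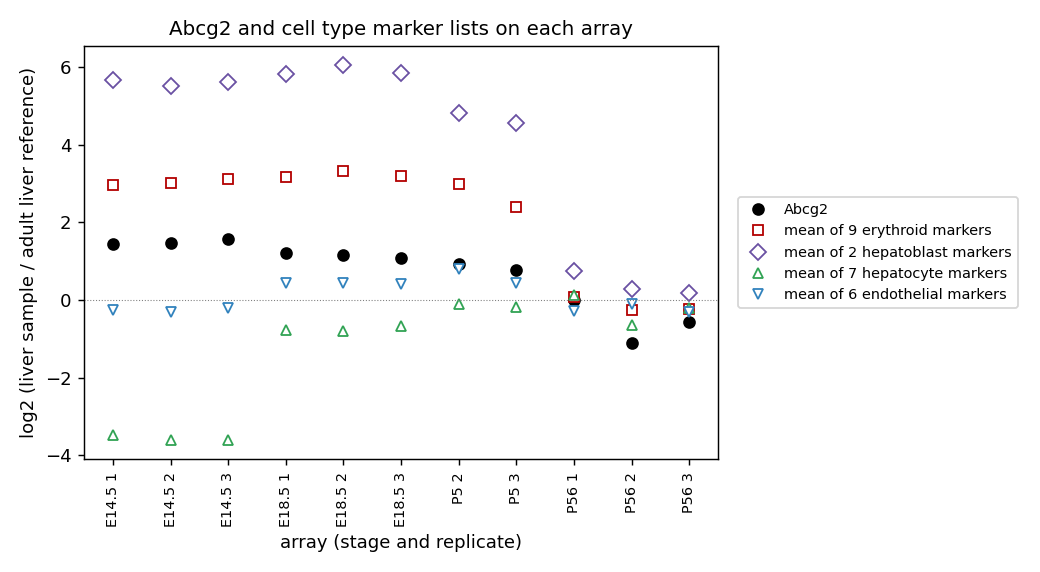
Log2 ratio to the adult liver reference (y axis) on each array (x axis) for Abcg2 (filled) and the means of 4 cell type marker lists (open). Abcg2 and the erythroid and hepatoblast lists lie lowest on the 3 P56 arrays, while the hepatocyte list is lowest at E14.5 (-3.62 to -3.48).

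The hepatocyte markers rose beside Slco1b2 from E14.5 to E18.5, a step at which Slco1a1 and Slco2b1 were not called. Averaged over the list, they lay between -3.62 and -3.48 at E14.5 and then at -0.79 to -0.66 at E18.5, -0.19 to -0.09 at P5 and -0.65 to 0.12 at P56, and all 7 were well above background on every array. From E18.5 to P5, 2 of 7 were higher and 1 lower, with a median change of 0.33, whereas Slco1b2 rose by 2.36. Between P5 and P56, 2 of 7 were higher and 2 lower, with a median change of -0.08. Slco1b2 rose by 0.78 at that step, and Slco1a1 and Slco2b1 by 3.59 and 3.48. Macrophage markers rose by E18.5 (7 of 7) and endothelial markers too (4 of 6), and both fell from P5 to P56 (5 of 7 and 6 of 6). Their part in the transporter values was not tested.

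Within the 8 members, the profiles over the 11 arrays fell into a few shapes, given here as correlations that share arrays and reference. Slco1a1 and Slco2b1 were closest to each other (r = 0.987), then Slco2b1 and Slc22a7 (0.969) and Slco1b2 and Abcc3 (0.96, the latter over the arrays with a value). Slco1b2 and its neighbour Slco1a1 had an r of 0.666, and Abcg2 ran negative with all others (-0.503 to -0.935). Over the 16431 genes with a value on every array, the profiles most like Slco1b2 were those of Lamp2 (r = 0.998), Pon1 (0.997) and Aldh3a2 (0.996) over 11 arrays. Those of Slco1a1 were Gpr155 (0.995), LOC381806 (0.993) and BC024137 (0.993), and those of Slco2b1 were C230043N17Rik (0.998), TC1533197 (0.997) and AU018778 (0.997).

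Profiles like Slc22a7 were 4930420K17Rik (0.995), Lypla1 (0.995) and Nr1d2 (0.995). The closest to Slco1a4 were Park2 (0.990), 1810023F06Rik (0.987) and 4930455C21Rik (0.986). For Abcc3, over the 10 arrays with a value, they were LOC214403 (0.998), Cabc1 (0.997) and Abhd3 (0.997). Abcg2 was followed most closely by Nono (0.987), Tuba4 (0.985) and Apeh (0.984). Abcc6 had the loosest match, with Dsc2 (0.937), 9330180L21Rik (0.910) and TC1477069 (0.896). Names are those of the array design, and some are clone or cluster names.

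The other uptake and export carriers give the setting. Of 45 listed, 36 were on the array and 29 could be tested. From E14.5 to E18.5, 10 rose and 3 fell, and the median log2 change was 0.18. From E18.5 to P5, 8 rose and 2 fell (median 0.22), from P5 to P56, 6 rose and 8 fell (median -0.13), and from E14.5 to P56, 17 rose and 7 fell (median 0.45). Between P5 and P56 the members and the other carriers thus had medians of 1.00 and -0.13, beside -0.02 for all genes, and the difference between the lists was not tested.

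Among the other Slco genes (5 of 8 tested), Slco2a1, the prostaglandin transporter, rose at E18.5 by 2.03 (SE 0.12, adjusted p = 8.8e-08) and stayed there, with stage means of -2.87, -0.85, -0.59 and -0.90. Slco4c1 rose at E18.5 by 0.95 (adjusted p = 3.6e-05; at least 1.82-fold in the Cy5 channel, since it was not above background at E14.5) and fell at P5 by 0.72 (adjusted p = 0.0041). Slco4a1 fell at P5 by 0.81 (adjusted p = 0.0013). Slco1a5, at the end of the chromosome 6 cluster, rose from P5 to P56 by 0.82 (adjusted p = 0.033). It was dim, above background on 2 of the 3 P56 arrays and on no E14.5 array. In this cluster Slco1a1, Slco1a4 and Slco1a5 were each called from P5 to P56 and Slco1b2 at every step. The calls of Slco1a4 and of Slco1b2 from P5 to P56 were lost under some settings. Slco1a6 and Slco1c1 were too dim to test. The Slco genes resemble each other in sequence, and how far the probes share targets was not tested.

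Among the Slc22 genes (10 of 12 on the array tested), Slc22a18 rose at E18.5 by 1.21 (adjusted p = 2.3e-05) and at P5 by 0.81 (adjusted p = 0.0061). Slc22a4 and Slc22a8, known as carriers of ergothioneine and of organic anions in the kidney, fell from E14.5 to P56 by 1.81 (adjusted p = 1.6e-07) and by 1.77 (adjusted p = 3.8e-07). Slc22a2 and Slc22a3 were too dim to test.

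Of the bile acid carriers, Slc10a1, the sodium-dependent uptake carrier NTCP, rose at E18.5 by 2.92 (SE 0.20, adjusted p = 3.6e-07) and from P5 to P56 by 0.69 (adjusted p = 0.026), with stage means of -3.63, -0.72, -0.80 and -0.11. Slc10a2 was called only from P5 to P56 among the successive steps, with a rise of 2.68 (adjusted p = 0.00015). It was not above background on any array before P56, and its probe passed the filter on dim probes through P56 alone. The size of this rise is therefore uncertain, and the earlier steps compare levels that were not above background. Slc51b rose at P5 by 0.99 (adjusted p = 0.0033) and fell at P56 by 0.59 (adjusted p = 0.015), and its partner Slc51a fell at P56 by 0.48 (adjusted p = 0.014), to a level not above background.

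Of the other exporters (10 of 12 tested), Abcb11, the bile salt export pump, rose at E18.5 by 4.60 (SE 0.15, adjusted p = 1.8e-09), close to the 4.51 of Slco1b2, and Abcc2, the exporter of bilirubin conjugates, by 2.23 (SE 0.15, adjusted p = 2.8e-07). Neither was called at a later step. Abcb4, the phospholipid exporter, rose by 1.01 at E18.5 (adjusted p = 1.7e-05) and fell by 0.92 at P56 (adjusted p = 0.00011). Abcg5, which exports sterols with Abcg8, rose by 2.02 at P5 (adjusted p = 0.00017). At P56, 4 of these 10 were lower than at P5 (Abcc1, Abcc4, Abcc5 and Abcb4) and the other 6 were not called, Abcb11 with 0.42 (adjusted p = 0.054).

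The 10 nuclear receptors and other factors listed as regulators mostly rose early. From E14.5 to E18.5, 8 of them rose, with a median change of 1.49, beside 24.6% of all genes and 7 of 7 hepatocyte markers. At P56, 9 were higher than at E14.5, beside 36.1% of all genes. Whether they regulate the 8 members was not tested. Nr1h4, the bile acid receptor FXR, rose by 2.35 at E18.5 (adjusted p = 2.7e-08) and by 1.25 at P56 (adjusted p = 1.4e-05). Nr1i2, the pregnane receptor PXR, rose by 1.53 at E18.5 (adjusted p = 2.6e-05), and Nr1i3, the receptor CAR, by 0.94 at E18.5 (adjusted p = 0.00034) and 0.88 at P5 (adjusted p = 0.0061). Ppara rose by 2.03 at E18.5 (adjusted p = 5e-08) and fell by 0.35 at P56 (adjusted p = 0.035). At the step from P5 to P56, 2 of the 10 were higher (Nr1h4 and Hnf4a) and 1 was lower, beside 20.9% and 24.7% of all genes. Several of these genes also stand in the study's list of RXR-alpha pathway genes.

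**Figure D5:**
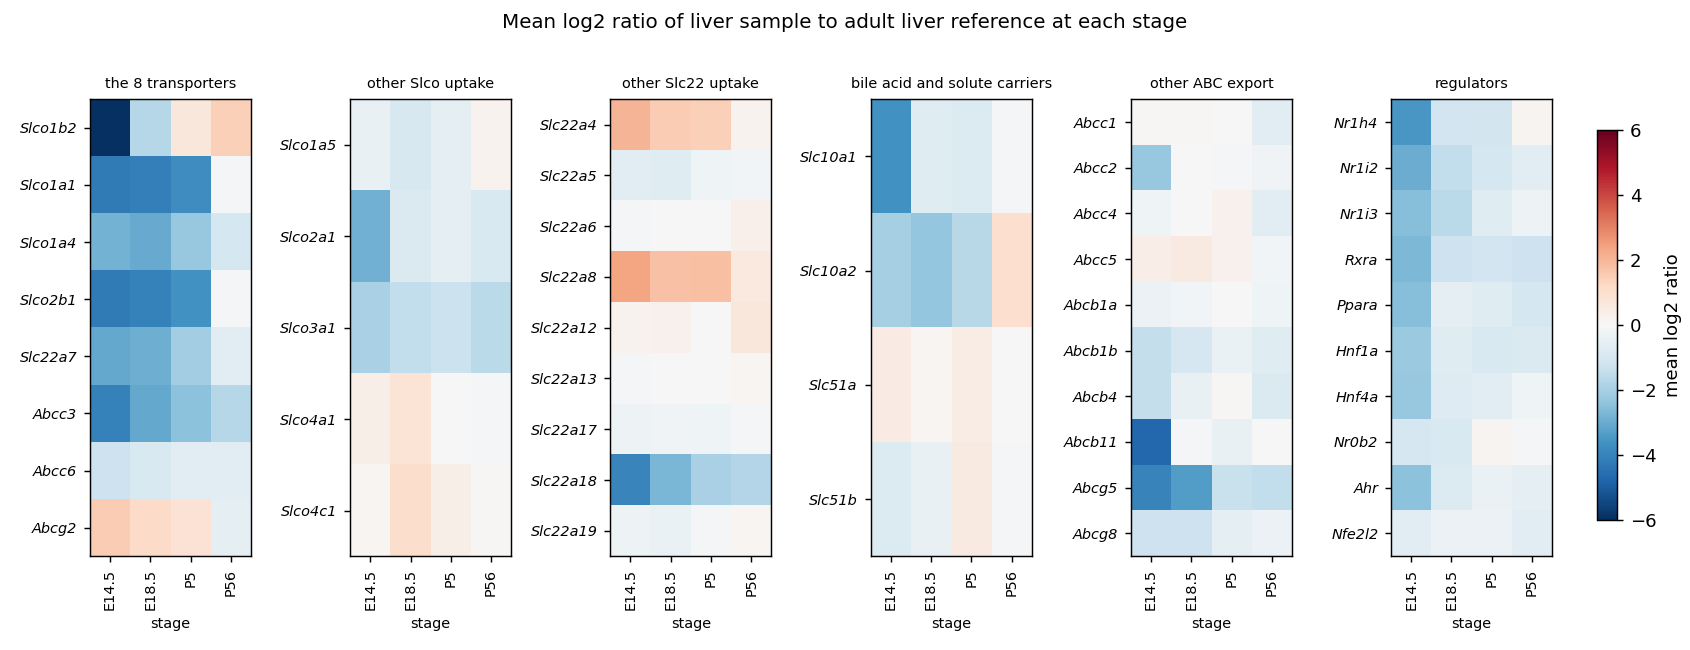
Mean log2 ratio to the adult liver reference (colour) at each stage (columns) for the 8 transporters, other carriers in 4 groups, and 10 regulators (rows). Slco1b2, Slc10a1, Abcb11 and most regulators lose their deep blue between E14.5 and E18.5, whereas Slco1a1 and Slco2b1 stay blue until P5.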

How the data were processed

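The authors deposited the spot intensities of both channels as read by Feature Extraction 9.5.1.1, not normalized between arrays. A second deposited table, used as an alternative, holds the authors' own log2 ratios after lowess; its columns had an r of 0.794 to 0.92 with the ratios made here, and 2 columns (replicate 1 of E14.5, replicate 3 of P5) came closest to replicate 2 of their stage. The scanner's log10 ratios, which the authors deposited in the same files, were not used.

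Background was taken off the mean signals with normexp (offset 50), which understates the change of dim probes, and the log2 ratio of Cy5 to Cy3 was centred by loess array by array. Controls and the 177 to 356 outlier spots of an array were dropped. Probes had to be well above background (Cy5) throughout at least 1 stage and could miss 1 array per stage; of several, a gene's brightest was used. Stages were compared with limma 3.58.1 (R 4.3.3) over all 11 arrays, tested on simulated data. Where a level was not above background, bounds are from the Cy5 channel after loess and Aquantile scaling, and are not given for Slc10a2, Abcc6 and the dimmer Abcc3 probe, where they exceeded the ratio's own fold. Alternatives changed the background correction, normalization, probe filter and choice, spot and array exclusion, scan and replicate blocks, the test and the source of the values. The number of arrays limits the precision.

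The members and gene lists were chosen with earlier results of these data known. Named beside the members are, per group of carriers and among the regulators, up to 4 genes with the largest change among those called, and the 3 profiles most like each member; genes outside this rule that the text names were chosen after their values were seen. The values of 1 other carrier, which the list counts include, are not reported here. Positions are those of the array files (mm7), and exons were not assigned. Promoters are from RefSeq (GRCm38.p6). Figures used matplotlib 3.10.9.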

Additional observations from a re-analysis of the deposited data

How the results depend on the processing

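The number of members called at E18.5 against E14.5 was 4 with Cy5 alone and 2 to 3 with 1 array left out. It was 1 when a value on every array was asked for, since Abcc3 is then read by its dimmer probe. Over all genes, Cy5 alone called 8101 at that step, in place of 7908. The methods' t-test after adjustment called 0 members, 0 other transporters and 61 genes at P5 against E18.5 and 0 members, 1 other transporter and 298 genes at P56 against P5, with 4 and 6 members at an unadjusted p under 0.05; the cause was not tested. Other transporters called at P5 against E18.5 were 6 with the scanner software's processed signals, 6 among probes above background on all arrays, where fewer were tested, and 2 in the authors' table. At P56 against P5 they were 9 among probes above background on all arrays, 8 in the authors' table and 8 with scan as a fixed block, and at P56 against E14.5 14 among probes above background on all arrays. Genes called were 4798 at E18.5 against E14.5, 292 at P5 against E18.5 and 5040 at P56 against P5 in the authors' table, 1475 at P5 against E18.5 with median centring and 4673 at P56 against P5 with scan as a fixed block. With 1 array left out, members called ranged from 2 (without P5 replicate 3) to 6 (without P5 replicate 2) at P5 against E18.5, 6 to 7 at P56 against P5 and 7 to 8 at P56 against E14.5; other transporters from 10 to 15, 7 to 11, 8 to 17 and 21 to 25; and genes from 6489 to 8482, 929 to 3766, 4741 to 8211 and 10874 to 12073 in the 4 comparisons.

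Median centring in place of loess moved the median of all genes to -0.47 at P56 against P5 and -0.33 at P56 against E14.5. Relative to that median, Slco1b2, Slco1a4 and Abcc3 changed by 0.82, 0.82 and 0.52 from P5 to P56, and their calls were lost (adjusted p = 0.27, 0.4 and 0.86); Abcc6 was called lower (-0.13 relative to the median, adjusted p = 0.039). The share of called genes that rose was then 6.8% in place of 45.7% and 22.9% in place of 50.9%. It was 41.8% with Cy5 alone and 63.9% in the authors' table in place of 51.9% at E18.5 against E14.5, and 72.9% in the authors' table in place of 53.3% at P5 against E18.5. An offset of 16 gave 4.92 for Slco1a1 and 2.37 for Slco1a4 at P56 against E14.5, and over all alternatives Slco1a1 ranged from 3.34 to 7.33 there.

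Signs turned only for differences that were not called. Slc22a7 at E18.5 against E14.5 was -0.11 with Cy5 alone and -0.041 with scan as a fixed block. At P5 against E18.5, Slco1a1 was -0.16 and Abcc6 -0.0409 with processed signals, -0.084 and -0.0418 with Cy5 alone and -0.0402 and -0.11 in the authors' table, and Slco1a1 ranged from -0.41 (without P5 replicate 3) to 1.17 (without P5 replicate 2) with 1 array left out. Abcc6 at P56 against P5 was 0.051 without background correction, 0.0415 in the authors' table, 0.0148 with the replicate block, 0.13 without P5 replicate 3 and 0.08 without P56 replicate 3. Scan as a fixed block lost Slco1a4 from P5 to P56 (0.58, adjusted p = 0.29), and it could not be fitted for P5 against E18.5 or P56 against E14.5, where scan and stage cannot be told apart. Same-numbered replicates did not deviate together (r from -0.306 to 0.187). With so few arrays per stage, whose deviations from the stage mean are tied to each other, this cannot show whether the numbers pair arrays. With the replicate block, 2, 3, 7 and 8 members were called in the 4 comparisons, as without it. Over all genes, 7535, 1734, 6854 and 11516 were then called. Where leaving out an array left 1 at P5, it was assumed to vary like the other stages.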
